A study of Homo sapiens with 21 samples.

Results

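The G1 cyclins and DNA replication genes described here are 47 genes of the 61268 features in the deposited count table, taken by their symbols in that table: the D and E cyclins, the activators E2F1 and E2F2, and genes that license, start, copy and supply DNA replication. All 47 were in the table and all 47 passed the filter on low counts, as did 19655 features in all. The gene with the fewest reads was CCNE2, with a mean of 124 counts per library and 30 in its lowest library. RNA came from H9, an established human embryonic stem cell line, carrying a doxycycline-inducible (TRE3G promoter) transgene for wild-type GSX2 with a double FLAG tag, during differentiation toward lateral ganglionic eminence (LGE), the ventral forebrain domain that gives rise to striatal neurons. The 7 groups of 3 libraries are day 10, before any doxycycline, and pairs of groups taken 12, 24 and 48 h after that, either given doxycycline (Dox) or left untreated (NoDox). Dosing in the Dox groups was 100 ng/mL and ended at 12 h; the samples at 24 h and 48 h therefore come after washout. Every group carries the transgene, and no group had doxycycline without it, so the drug and the transgene cannot be told apart. The labels do not say whether the 3 replicates were separate cultures, whether the line is 1 clone, or which strand was counted. A p-value here therefore speaks to the scatter among libraries within groups, which may be technical. That scatter is pooled over the 7 groups and partly shared between genes, so it is not that of the compared groups alone.

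Depth was 14.4 to 33.8 M counts. Transgene RNA averaged 876 ± 114 CPM (read counts scaled to library size with the factors of the fit; SD, n = 3) at 12 h of Dox, 19.5 ± 5.80 CPM at 24 h and 0.934 ± 0.050 CPM at 48 h, and at most 0.523 CPM in any NoDox library. At day 10 the neural progenitor marker SOX2 was high (1020 ± 53.0 CPM), and of the pluripotency markers POU5F1 and NANOG were at most 0.141 CPM and TDGF1 was at 0, while LIN28A and DPPA4 averaged 82.5 and 155 CPM. DNMT3B and ZFP42 of that list averaged 88.4 and 6.00 CPM. Of the mesenchymal and endothelial markers, COL1A2 and COL1A1 averaged 888 and 450 CPM, and the others at most 27.1 CPM (PDGFRB). LGE markers were present at low to moderate levels, from 0.988 CPM for GSX1 to 179 CPM for SP8. Libraries of a group differed by more than sampling noise. Replicate 3 of Dox at 12 h and replicate 1 of day 10 stood farthest from their group. Replicate 1 of Dox at 24 h had the lowest summed level of the 47 genes in its group, 3008 CPM against 3311 and 3342 CPM. Replicate 1 was also the lowest in every other NoDox and Dox group, though not at day 10. Examples are 2347 against 2513 and 2523 CPM in Dox at 48 h, and 3021 against 3035 and 3037 CPM in Dox at 12 h.

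D cyclins, with CDK4 and CDK6, start the phosphorylation of the retinoblastoma protein in G1, and E cyclins with CDK2 complete it. The release of E2F factors then switches on replication genes at the border of G1 and S phase. In G1 the origin recognition complex, CDC6 and CDT1 load the ring-shaped MCM2 to MCM7 helicase onto origins, which is called licensing; in S phase CDC45, the GINS complex and MCM10 activate that helicase and polymerases copy the strands. In the ventricular zone of the forebrain these genes mark dividing progenitors, and they are lost as cells leave the cycle to become neurons. In bulk RNA, fewer cycling cells and less RNA per cell cannot be told apart.

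Per kilobase of gene model, levels at day 10 ranged from 99.2 ± 12.5 CPM per kb for PCNA, the sliding clamp of the polymerases, to 1.55 ± 0.146 CPM per kb for CCNE2. TYMS (69.8 ± 5.43), MCM7 (57.9 ± 1.04) and RRM1 (49.3 ± 2.88 CPM per kb) followed PCNA. Of the G1 cyclins CCND1 was highest at 39.3 ± 3.18 CPM per kb, CCND2 was at 23.9 ± 0.819, CCNE1 at 5.46 ± 0.605 and CCND3 at 2.91 ± 0.292 CPM per kb. Neighbours such as CCND3, PRIM2, E2F2 and POLE2, all between 2.84 and 2.91 CPM per kb, lay within one another's SD.

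E2F-type words were common in the promoters of these genes. Since E2F factors switch on replication genes, a choice of genes by that role makes this no independent finding. RefSeq promoter windows (GRCh38.p14, 250 bases before to 50 after a start; the counts use hg38) were at hand for 41 of the 47 genes. At least 1 of 4 E2F-type words, TTTGGCGC, TTTCGCGC, TTTCCCGC or TTTGGCGG, read on both strands, lay in the windows of 25 of 41 (61.0%), against 4.05% of 27305 genes with a window and 6.45% of 12958 tested ones. The word TTTGAA, the core of the element found at many mitotic genes, lay in 1 of 41 (2.44%), against 18.2% of all genes and 14 of 21 (66.7%) of a list of G2 and M phase genes, whose E2F-word share was 4 of 21 (19.0%). CCAAT was found in 58.5% of the 41, 90.5% of the G2 and M phase genes and 39.7% of all genes. These are matches of letters, not shown binding sites. Shown here, 5′ to 3′ on the gene's strand, are the 150 bases just before a start for the activator E2F1, the licensing genes CDT1, MCM6 and MCM7 and the clamp PCNA, which moved together at 12 h, and for CCND3, which moved the other way and has no such word in this window. Capitals mark the E2F-type words. In MCM6 the words TTTGGCGC and, on the other strand, TTTCGCGC overlap in 1 stretch. The other windows of MCM7 and PCNA held no such word, and neither did any window of ORC1, ORC6 and RRM2, which also fell at 12 h. The windows are chr20:33686386-33686535 (E2F1, minus strand), chr16:88803639-88803788 (CDT1, plus), chr2:135876444-135876593 (MCM6, minus), chr7:100101398-100101547 (MCM7, minus; 1 of several starts), chr20:5126623-5126772 (PCNA, minus; 1 of several) and chr6:41941809-41941958 (CCND3, minus; 1 of several).
E2F1: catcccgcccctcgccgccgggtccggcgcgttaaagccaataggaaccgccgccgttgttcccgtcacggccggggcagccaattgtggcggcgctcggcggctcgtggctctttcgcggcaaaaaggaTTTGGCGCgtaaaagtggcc
CDT1: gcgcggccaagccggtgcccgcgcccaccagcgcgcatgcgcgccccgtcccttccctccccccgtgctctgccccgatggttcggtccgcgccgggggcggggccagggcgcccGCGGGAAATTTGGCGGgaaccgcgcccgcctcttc
MCM6: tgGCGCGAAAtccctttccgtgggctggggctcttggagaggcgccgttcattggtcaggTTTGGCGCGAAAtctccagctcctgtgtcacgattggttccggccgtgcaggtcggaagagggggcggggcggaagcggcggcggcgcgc
MCM7: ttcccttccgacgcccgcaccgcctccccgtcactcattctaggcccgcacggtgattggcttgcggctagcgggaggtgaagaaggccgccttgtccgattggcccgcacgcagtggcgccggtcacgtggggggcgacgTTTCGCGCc
PCNA: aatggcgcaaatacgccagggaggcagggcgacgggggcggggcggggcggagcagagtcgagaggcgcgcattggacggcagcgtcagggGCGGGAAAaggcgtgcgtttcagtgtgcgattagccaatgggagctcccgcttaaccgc
CCND3: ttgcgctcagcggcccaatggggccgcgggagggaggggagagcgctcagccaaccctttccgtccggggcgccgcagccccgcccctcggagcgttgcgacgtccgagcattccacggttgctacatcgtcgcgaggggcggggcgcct

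Without doxycycline, replication genes were higher after 12 h and lower after 48 h than at day 10. At 12 h, 25 of the 47 were higher than at day 10 and 2 lower (edgeR quasi-likelihood F test, Benjamini-Hochberg adjusted p below 0.05 over all features), where 15.5% of all features tested were higher and 16.3% lower. The median log2 change of the 47 was 0.22, that of all features -0.01. Replicates of the NoDox 12 h and day 10 groups did not overlap for 29 genes in the higher and 3 in the lower direction, with 21.3% and 22.5% of all features doing so. All 6 of MCM2 to MCM7 rose (0.21 to 0.58), and did so with each library left out. Of the 6 helicase activation genes 5 rose, but 1 did without day 10 replicate 2, and 3 without day 10 replicate 3 or any 1 NoDox library. UHRF1, which reads hemimethylated DNA for maintenance methylation, rose most, from 66.6, 75.9 and 75.3 CPM to 110, 115 and 104 CPM (log2 change 0.59 ± 0.09, the ± of a log2 value being an approximate standard error, edgeR adjusted p = 9.68e-06). MCM5 went from 70.0, 68.5 and 72.2 to 108, 101 and 107 CPM (0.58 ± 0.07). Every 12 h library of both genes lay above every day 10 library. CDT1 (-0.28 ± 0.08) and CCND2 (-0.17 ± 0.06) were the genes that fell. Without day 10 replicate 1 the counts were 24 higher and 1 lower.

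At 24 h without doxycycline 8 genes were below day 10 and 1 above (8.47% and 8.84% of all features), and the median was -0.09. POLE2, a subunit of the leading-strand polymerase, fell most, to 6.76, 5.79 and 5.62 CPM from 8.31, 7.53 and 9.24 CPM (-0.46 ± 0.14, edgeR adjusted p = 0.0189). PCNA (-0.34 ± 0.09) and CCNE1 (-0.33 ± 0.11) came next, and CCND2 was the gene that rose (0.24 ± 0.06). Non-overlapping replicates were found for 19 genes lower and 4 higher (18.5% and 17.5% of all features). The count of 8 was 3 without NoDox 24 h replicate 1, so it rests in part on that library.

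At 48 h without doxycycline 42 of the 47 were below day 10 and 1 above, against 20.2% and 21.4% of all features, with a median of -0.65 where that of all features was 0.00. The 42 included all 10 licensing, 6 helicase activation and 7 polymerase genes. CCNE2 fell most (-1.48 ± 0.19, edgeR adjusted p = 5.83e-07), to 1.65, 2.60 and 3.03 CPM from 7.33, 7.04 and 6.10 CPM. CCNE1 was next (-1.30 ± 0.12), from 15.1, 12.6 and 12.6 to 4.94, 5.46 and 5.81 CPM. The groups lay wholly apart for both, as they did for 42 genes lower and 1 higher (23.4% and 24.6% of all features). CCND2 was the sole gene above day 10 (0.58 ± 0.06), from 198, 186 and 189 to 297, 276 and 282 CPM, while RFC3, SLBP, CCND1 and CCND3 did not pass. Over the same interval 9 of 28 G2 and M phase genes rose and 8 fell (median 0.10), and 12 of 15 postmitotic neuron markers rose and 1 fell (4 G2 and M phase genes fell without NoDox 48 h replicate 1), the neuron markers' summed level going from 1717 to 1763 CPM at day 10 to 2314 to 2745 CPM; their part in the result was not tested.

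**Figure D1:**
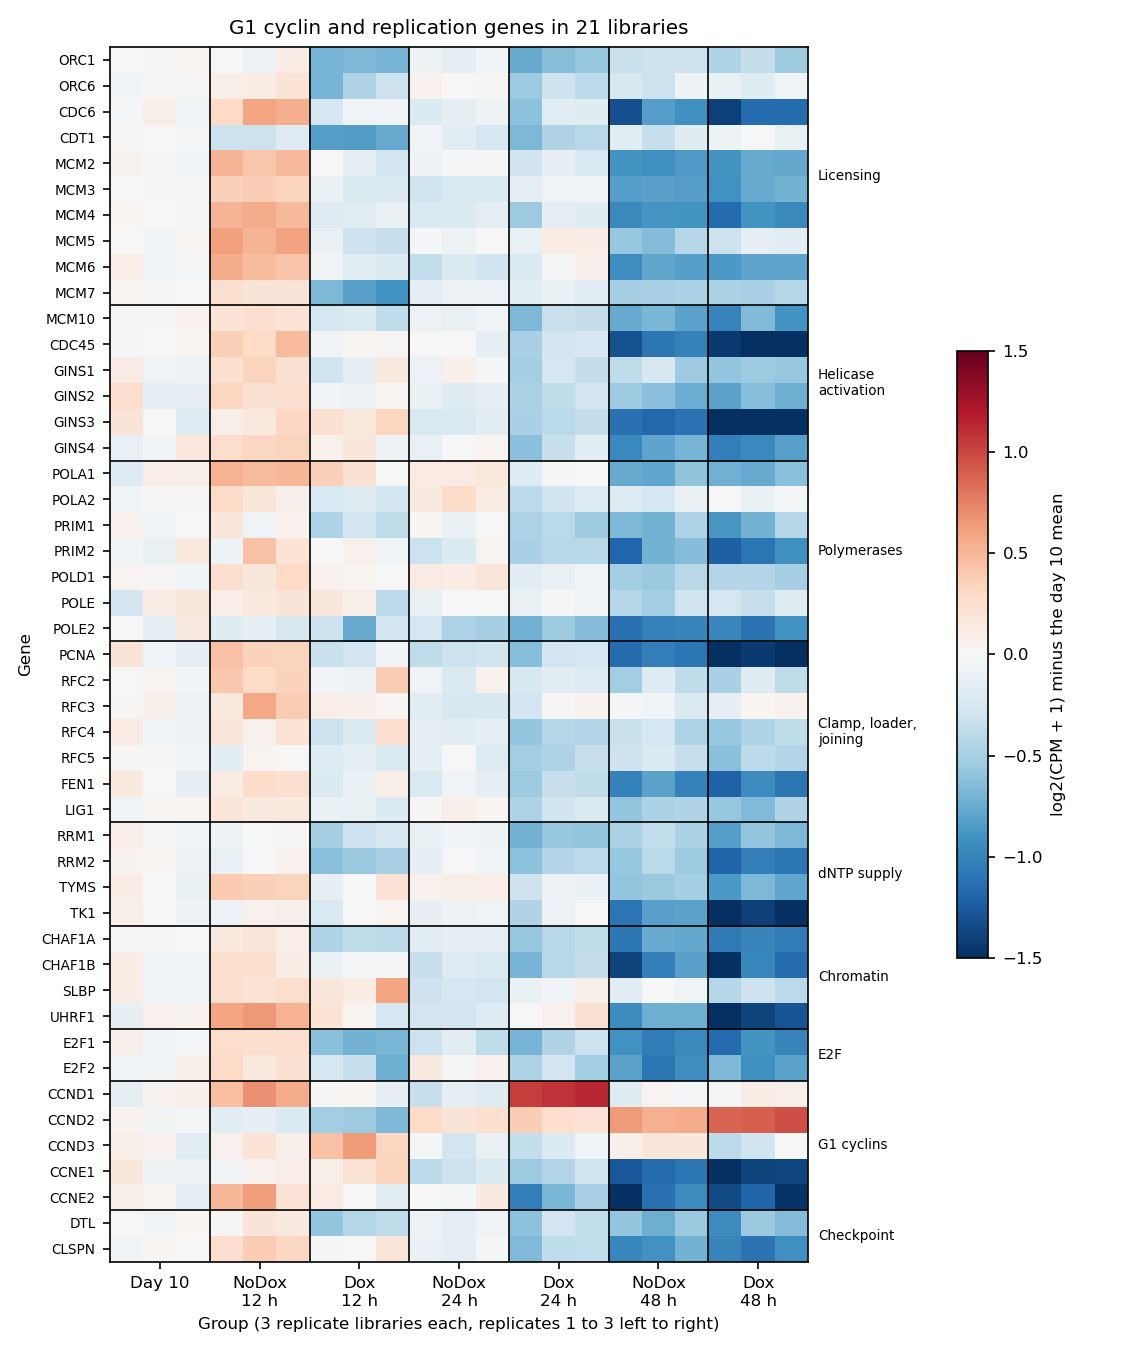
Each row is 1 of the 47 genes, each column 1 of the 21 libraries, and the colour is log2(CPM + 1) minus the day 10 mean (red higher, blue lower, scale ending at 1.5 in each direction). The NoDox 12 h columns are mostly red and both 48 h groups mostly blue, while CCND1 in Dox at 24 h and CCND2 at 48 h are red.

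After 12 h of doxycycline 36 of the 47 genes were below NoDox and 1 was above, against 19.9% and 19.8% of all features tested. Their median log2 fold change was -0.39 (all features 0.01), with 14 of the 36 at least 1.5-fold lower, as were 8.49% of all features. Replicates did not overlap for 37 genes lower and 1 higher (23.1% and 23.7% of all features). The NoDox 12 h libraries in this comparison are the same ones that stood above day 10, so the 2 comparisons share them: the Dox 12 h libraries summed to 3021 to 3037 CPM over the 47 genes, day 10 to 3480 to 3583 CPM and NoDox 12 h to 4190 to 4254 CPM. With library totals in place of composition factors, which moves the median of all features by 0.18, 23 were lower and 3 higher, with a median of -0.22. All 13 calls then lost lay outside licensing, E2F and PCNA. Of these, 12 had log2 changes of -0.21 to -0.38, and the other, CCNE2, had a larger fall. Without Dox 12 h replicate 3 the counts were 37 lower and 1 higher.

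Among the G1 regulators at 12 h, E2F1 fell from 77.9, 76.8 and 78.1 CPM to 41.7, 39.4 and 39.9 CPM (log2 fold change -0.94 ± 0.08, edgeR adjusted p = 7.76e-11). E2F2 fell from 19.4, 17.3 and 18.5 to 12.8, 12.1 and 9.02 CPM (-0.69 ± 0.11). Both activators lay wholly below their controls and below day 10. CCND1 went from 256, 301 and 275 to 188, 191 and 171 CPM (-0.60 ± 0.07), and CCND2 from 170, 174 and 166 to 134, 132 and 119 CPM (-0.41 ± 0.06). CCND3 moved the other way, from 17.5, 19.4 and 17.7 to 23.1, 26.7 and 21.2 CPM (0.38 ± 0.11, edgeR adjusted p = 0.00537), and was the 1 gene of the 47 that rose; without Dox 12 h replicate 2 it did not pass. CCNE2 fell from 10.0, 11.1 and 8.05 to 7.51, 6.77 and 5.96 CPM (-0.52 ± 0.16). CCNE1, at 12.9, 14.0 and 14.4 against 14.3, 15.6 and 17.1 CPM, did not pass (0.18 ± 0.10, adjusted p = 0.17). The D and E cyclins thus split, with 3 lower, 1 higher and 1 not called. With library totals they were 2 lower and 2 higher, CCNE2 losing its call and CCNE1 passing as higher (0.36, edgeR adjusted p = 0.00460).

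All 10 licensing genes fell at 12 h, by a median of 0.63 on the log2 scale, and all 10 did so too with library totals and with each library left out. MCM7 changed most of the 47 genes, from 340, 329 and 328 CPM to 179, 164 and 153 CPM (-1.01 ± 0.06, edgeR adjusted p = 6.11e-15). MCM5 went from 108, 101 and 107 to 65.3, 56.3 and 54.8 CPM (-0.84 ± 0.07), and MCM6 from 136, 128 and 124 to 88.8, 81.6 and 79.1 CPM (-0.64 ± 0.07). ORC1, the ATPase of the origin recognition complex that is made in G1, went from 30.9, 29.1 and 33.6 to 18.7, 19.0 and 18.8 CPM (-0.73 ± 0.08). CDT1, the loader that S phase destroys, went from 38.9, 38.8 and 42.7 to 27.2, 26.8 and 28.6 CPM (-0.54 ± 0.08). No Dox library reached a NoDox library for any of these 5 genes. Of MCM2 to MCM7, MCM7 lay well below day 10 in the Dox libraries (283 to 293 CPM there), whereas MCM2 at 139, 125 and 114 CPM was near its day 10 level of 143, 136 and 135 CPM.

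Among genes that act after licensing, the medians at 12 h were nearer 0. Of helicase activation genes 5 of 6 fell, with a median over the 6 of -0.34, led by MCM10 (-0.50 ± 0.08); GINS3 was at 0.05 ± 0.10. Of the polymerase and primase genes 4 of 7 fell (median -0.29), among them PRIM1, which makes the RNA primer (-0.46 ± 0.09), and POLA2 (-0.42 ± 0.07), while PRIM2, POLE and POLE2 did not pass. PCNA fell from 188, 177 and 174 to 110, 114 and 134 CPM (-0.59 ± 0.09), and with it RFC2, RFC3, FEN1, the flap nuclease of Okazaki fragments, and LIG1, the ligase that joins them (-0.26 to -0.32). For dNTP supply, RRM2 of ribonucleotide reductase went from 131, 142 and 148 to 91.1, 96.1 and 101 CPM (-0.55 ± 0.07), RRM1 from 197, 209 and 212 to 148, 168 and 176 CPM (-0.33 ± 0.07), while TYMS changed by -0.32 ± 0.07. TK1, a salvage kinase, did not pass (-0.09 ± 0.10). UHRF1 fell to 83.8, 74.7 and 60.3 CPM (-0.59 ± 0.09) and CHAF1A, of the assembly factor that follows PCNA, by -0.56 ± 0.07, while SLBP, which binds histone mRNA, did not pass at 44.7, 43.0 and 60.4 against 47.2, 45.8 and 47.8 CPM; the highest of these values is that of Dox replicate 3, without which the change was -0.10, and with library totals SLBP passed as higher (0.25, adjusted p = 0.0203). DTL, the receptor that delivers CDT1 for destruction, fell by 0.59 on the log2 scale and CLSPN, the checkpoint adaptor, by 0.27. These groups depended on the scaling: with library totals 2 of 6 helicase activation genes (median -0.16), 2 of 7 polymerase genes (-0.11), 1 of 7 clamp and joining genes (-0.10) and 1 of 4 dNTP genes (-0.15) were lower. The calls of GINS1, GINS2, GINS4, POLA1, POLD1, RFC2, RFC3, FEN1, LIG1, RRM1, TYMS and CLSPN were then lost. Without NoDox 12 h replicate 2, 3 of the 7 clamp and joining genes were lower.

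Of the 25 genes with an E2F-type word in the window 22 fell at 12 h (median -0.50), and of the 16 without one 8 fell (median -0.25); this is a description, and the words were not tested as a cause. CCND3 and CCNE1, the cyclins with positive changes at 12 h, both lacked a word in the printed part of every window. No window was at hand for CCND1, CCND2 and CCNE2, the cyclins that fell, so cyclins that rose and fell cannot be compared by this.

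**Figure D2:**
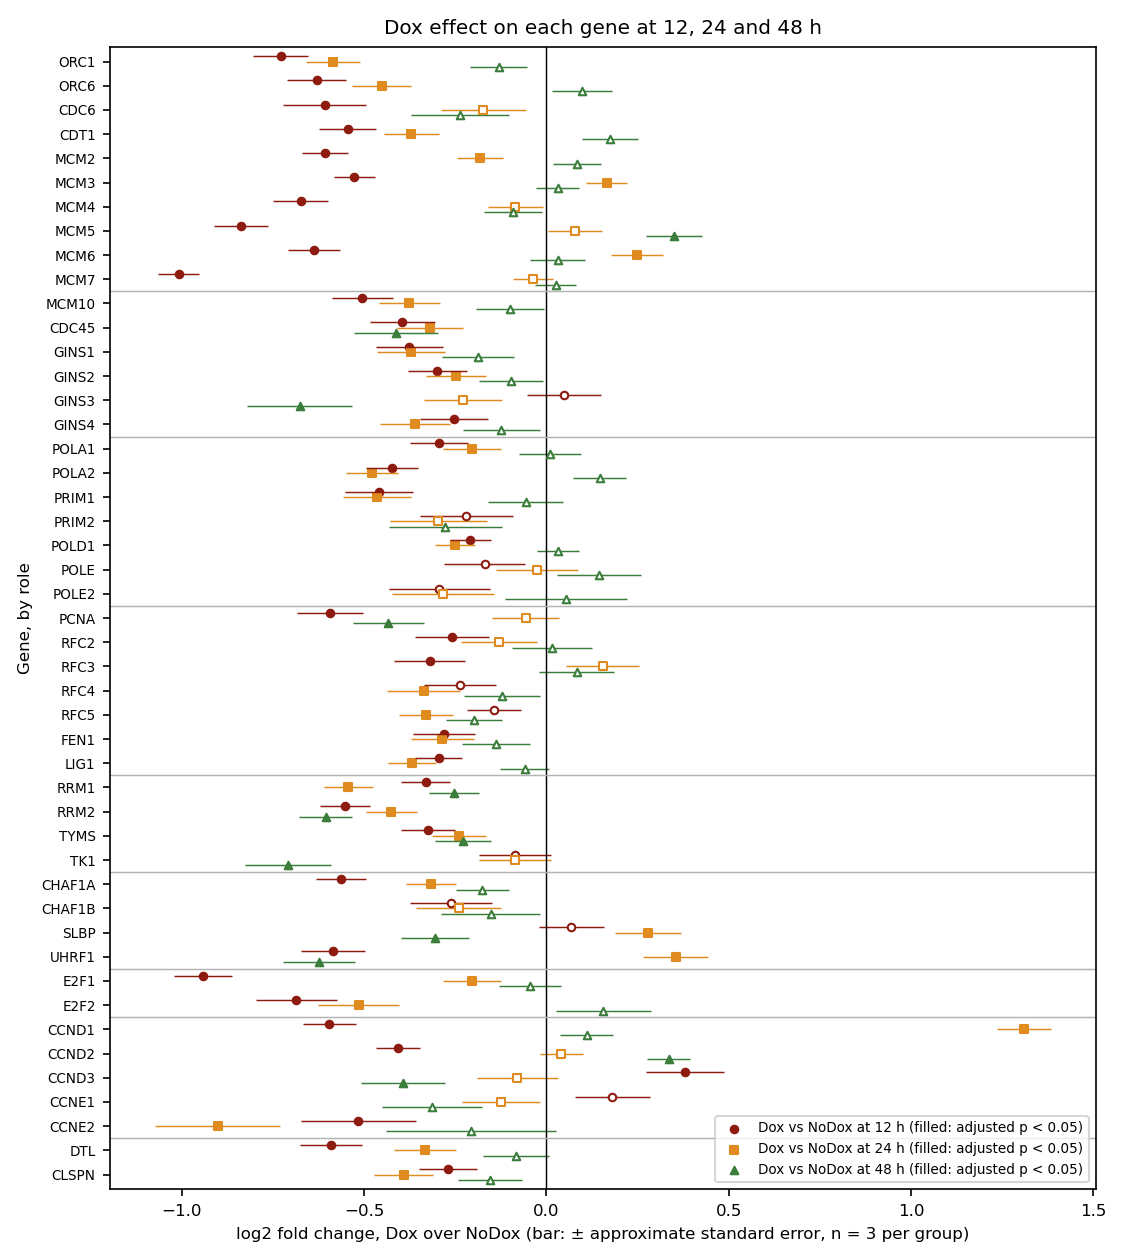
Points are log2 fold changes of Dox over NoDox at 12 h (red circles), 24 h (orange squares) and 48 h (green triangles) for each gene, with approximate standard errors as bars and filled symbols for adjusted p below 0.05, by role from licensing at the top to checkpoint at the bottom. The 12 h points of the licensing genes lie between -1.01 and -0.53, and the 24 h point of CCND1 stands at 1.31.

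At 24 h, 12 h after doxycycline was removed, 26 of the 47 genes were lower in Dox and 5 higher, where 16.9% and 17.0% of all features were. The median was -0.25. Replicates did not overlap for 29 lower and 4 higher (26.1% and 25.9% of all features). The number lower was 17 without Dox 24 h replicate 1, the library of the 24 h groups with the lowest sum over the 47 genes. CDC45, GINS2, GINS4, RFC4, FEN1, TYMS, MCM2, POLA1 and E2F1 were then not called. Some of these calls hung on other libraries too. POLA1 was lost with any 1 library of the 24 h groups left out. E2F1 was also lost without Dox replicate 2 or NoDox replicate 1 or 2, and MCM2 without Dox replicate 3 or NoDox replicate 2 or 3. GINS2 was also lost without Dox replicate 2 or NoDox replicate 1, and FEN1 without NoDox replicate 2. Without NoDox 24 h replicate 1, or without Dox 24 h replicate 3, 2 genes were higher, CCND1 and UHRF1.

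CCND1 rose most, from 147, 170 and 163 CPM to 385, 395 and 410 CPM (1.31 ± 0.07, edgeR adjusted p = 1.51e-14). These 3 libraries were the highest for CCND1 of all 21. CCND2, at 248, 227 and 221 against 233, 218 and 226 CPM, did not pass (0.04 ± 0.06), nor did CCND3, at 12.7, 14.4 and 16.0 against 16.3, 13.6 and 15.4 CPM, or CCNE1, at 8.86, 9.57 and 10.7 against 9.94, 10.5 and 11.4 CPM. CCNE2 fell furthest of the 47, from 6.76, 6.63 and 7.58 to 2.80, 3.87 and 4.57 CPM (-0.90 ± 0.17, edgeR adjusted p = 0.000119). Its exons overlap those of INTS8 on the other strand over 37.0% of its length, so its reads are uncertain. E2F2 stayed low, at 11.0, 12.6 and 10.6 against 17.2, 15.4 and 16.3 CPM (-0.51 ± 0.11), and E2F1, at 39.5, 46.9 and 51.5 against 51.8, 57.3 and 49.7 CPM, passed narrowly with overlapping replicates (-0.20 ± 0.08, adjusted p = 0.0461).

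Licensing genes divided at 24 h. MCM6 at 78.9, 90.8 and 97.3 against 71.0, 79.2 and 74.6 CPM (0.25 ± 0.07) and MCM3 (0.16 ± 0.06) were higher, MCM2 was lower (-0.18 ± 0.06), and MCM4, MCM5 and MCM7 did not pass. These MCM calls were fragile: with each library left out, 0 to 2 of MCM2 to MCM7 were higher and 0 to 1 lower. Without a filter MCM2 and MCM3 were not called. MCM7 was at 256, 268 and 258 against 263, 270 and 270 CPM (-0.04 ± 0.06). In contrast, the loaders remained below NoDox: ORC1 at 18.0, 19.6 and 20.6 against 29.4, 27.9 and 30.0 CPM (-0.59 ± 0.07), ORC6 (-0.45 ± 0.08) and CDT1 at 30.3, 35.6 and 36.4 against 47.7, 43.7 and 40.5 CPM (-0.37 ± 0.08). CDC6 did not pass (-0.17 ± 0.12).

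Helicase activation genes were lower in 5 of 6 cases at 24 h (median -0.34, and 2 of 6 without Dox 24 h replicate 1). Polymerase genes were lower in 4 of 7 (POLA2 -0.48 ± 0.07, PRIM1 -0.46 ± 0.09), and in 3 to 4 with each library left out. The dNTP genes were lower in 3 of 4. RRM1 went from 193, 202 and 197 to 128, 140 and 139 CPM (-0.54 ± 0.07) and RRM2 from 130, 143 and 136 to 92.0, 105 and 108 CPM (-0.43 ± 0.07), with no overlap. RFC4, RFC5, FEN1 and LIG1 fell (-0.29 to -0.37), and PCNA, at 88.7, 113 and 115 against 106, 110 and 113 CPM, did not pass (-0.06 ± 0.09). UHRF1 was above NoDox in every library, at 72.9, 76.1 and 85.3 against 59.9, 59.9 and 63.4 CPM (0.35 ± 0.09), as was SLBP at 37.1, 38.6 and 42.1 against 31.8, 32.9 and 32.4 CPM (0.28 ± 0.09).

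**Figure D3:**
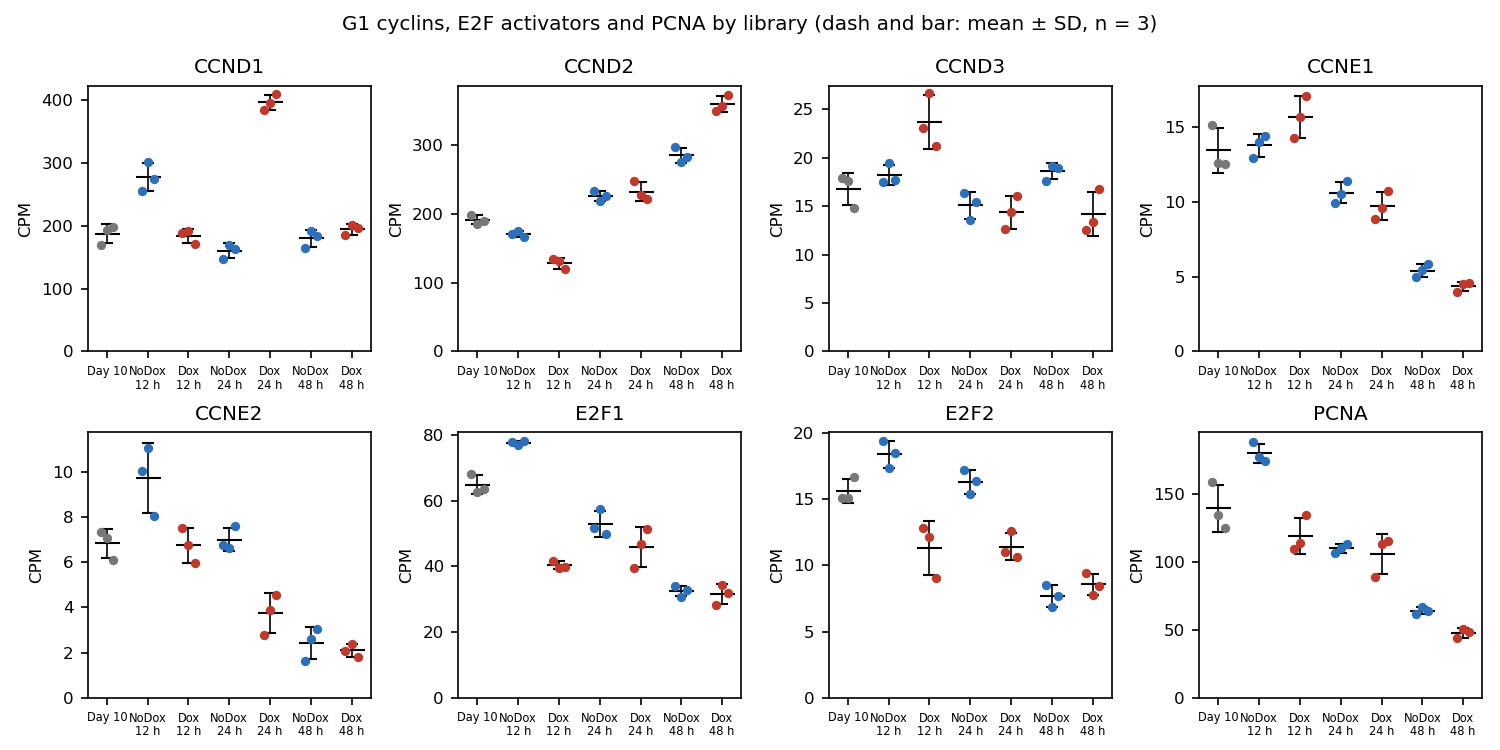
CPM of CCND1, CCND2, CCND3, CCNE1, CCNE2, E2F1, E2F2 and PCNA in each library (grey day 10, blue NoDox, red Dox), with the mean and SD of 3 replicates as dash and bar. CCND1 in Dox at 24 h sits between 385 and 410 CPM, above all other libraries, while both E cyclins decline toward 48 h with and without Dox.

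The change of the Dox effect from 12 h to 24 h was tested as a difference of effects. It was positive and passed for 13 of the 47 genes and negative for 1, CCND3 (-0.46 ± 0.15), against 16.1% and 14.8% of all features. In either direction that is 29.8% of the 47 genes and 30.9% of all features, near the background, and CCND3 lost its call in 5 of the fits that left out 1 library, those without Dox 12 h replicate 2, Dox 24 h replicate 1, NoDox 12 h replicate 1 or 3, or NoDox 24 h replicate 1. MCM2 to MCM7 passed in 6 of 6 cases, with a median of 0.79 and a range of 0.42 to 0.97, and CDC45, GINS1 to GINS4 and MCM10 in 0 of 6 (median 0.03), where 0 had an unadjusted p below 0.05 by edgeR and 0 passed by DESeq2's Wald test. CCND1 (1.90 ± 0.10), UHRF1 (0.94 ± 0.13), E2F1 (0.74 ± 0.11), PCNA (0.54 ± 0.13), RFC3 (0.47 ± 0.14), CCND2 (0.45 ± 0.08) and CDC6 (0.43 ± 0.16) were the others. MCM2 to MCM7 are a part taken out of the licensing group. Of that whole group 7 of 10 passed (median 0.51), and ORC1, ORC6 and CDT1 did not. With library totals 5 of the 6 MCM genes still passed (median 0.60) and 1 of the 6 helicase activation genes was negative (median -0.17), but the median over all 47 genes turned from 0.13 to -0.066, since that scaling moves the median of all features by -0.19, and 10 were positive and 8 negative. Whether the MCM genes differ from the helicase activation genes was not tested.

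By 48 h, 10 genes were lower and 2 higher in Dox, against 8.94% and 9.23% of all features, with a median of -0.10. Replicates did not overlap for 14 lower and 3 higher (17.1% and 18.9% of all features). Without NoDox 48 h replicate 2 the number lower was 5, with CDC45, RRM1, TYMS, SLBP and CCND3 not called. Leading the 10 were TK1, from 16.4, 20.1 and 20.2 to 10.4, 13.1 and 11.3 CPM (-0.71 ± 0.12, edgeR adjusted p = 7.82e-05), and GINS3, from 4.99, 4.75 and 5.02 to 3.12, 3.24 and 2.85 CPM (-0.68 ± 0.14). Neither gene had passed at 12 h or 24 h, and neither overlapped its control at 48 h. UHRF1 was down again, at 24.3, 27.1 and 28.9 against 37.3, 43.2 and 43.1 CPM (-0.62 ± 0.10), and RRM2 was at 61.0, 69.4 and 66.2 against 95.2, 107 and 96.8 CPM (-0.61 ± 0.07). PCNA, at 43.7, 50.7 and 48.1 against 61.5, 66.9 and 64.1 CPM, fell too (-0.43 ± 0.10). All 4 dNTP genes were lower at this time (2 without Dox 48 h replicate 1 or NoDox 48 h replicate 2), TYMS with 39.9% of its length shared with ENOSF1 on the other strand.

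Among the G1 regulators 1 rose and 1 fell at 48 h, both of them D cyclins. CCND1 was at 185, 201 and 197 against 165, 192 and 183 CPM (0.11 ± 0.07), CCNE1 at 4.00, 4.51 and 4.55 against 4.94, 5.46 and 5.81 CPM (-0.31 ± 0.14), CCNE2 at 2.08, 2.39 and 1.82 against 1.65, 2.60 and 3.03 CPM (-0.21 ± 0.23), and none of these passed. E2F1, at 28.3, 34.4 and 31.9 against 34.0, 30.8 and 32.7 CPM, and E2F2, at 9.43, 7.80 and 8.48 against 8.55, 6.84 and 7.69 CPM, overlapped their controls. CCND2 rose, from 297, 276 and 282 to 350, 356 and 373 CPM (0.34 ± 0.06), while CCND3 fell, from 17.6, 19.2 and 19.0 to 12.5, 13.4 and 16.7 CPM (-0.39 ± 0.12), a call lost without Dox 48 h replicate 1 or 2 or NoDox 48 h replicate 2 or 3. MCM5 was the 1 licensing gene that passed, at 55.9, 64.4 and 62.5 against 47.1, 44.4 and 51.9 CPM (0.35 ± 0.08). MCM7 was at 206, 205 and 213 against 203, 204 and 206 CPM, CDT1 at 46.4, 49.3 and 45.4 against 43.8, 38.2 and 43.0 CPM, and ORC1 at 22.2, 24.1 and 21.1 against 24.4, 24.6 and 24.8 CPM. Of the 7 polymerase genes 0 passed by edgeR, 0 had an unadjusted p below 0.05 and 0 passed by DESeq2's Wald test (1 was lower by edgeR without NoDox 48 h replicate 1), and POLE2 was at 3.73, 3.34 and 4.00 against 3.29, 3.63 and 3.71 CPM. From 24 h to 48 h the Dox effect rose for 11 genes, among them E2F2 (0.67 ± 0.17), POLA2 (0.62 ± 0.10), ORC6 (0.55 ± 0.12) and CDT1 (0.54 ± 0.11), and fell for 5, CCND1 (-1.20 ± 0.10), UHRF1 (-0.98 ± 0.13), TK1 (-0.62 ± 0.15), SLBP (-0.58 ± 0.13) and PCNA (-0.38 ± 0.13), where 12.7% and 13.1% of all features did; without Dox 48 h replicate 3 the 11 became 6.

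Over the 3 times, 20 of the 47 genes were lower at 12 h and 24 h and not called at 48 h, a pattern shown by 4.84% of all features. POLA1, E2F1 and MCM2 are among the 20, and their 24 h calls were lost when single libraries were left out. CDC45, RRM1, RRM2 and TYMS were lower at all 3 times, as were 1.73% of all features. MCM3, MCM6, CCND1 and UHRF1 were lower at 12 h and higher at 24 h, where 3.87% of all features were, and 4 of 47 is not far above that. MCM3 and MCM6 lost the 24 h call without NoDox 24 h replicate 1 or Dox 24 h replicate 3. PRIM2, POLE, POLE2, CHAF1B and CCNE1 were called at none of the times, against 39.7% of all features. With a replicate block CHAF1B passed as lower at 12 h (edgeR adjusted p = 0.0478) and PRIM2 at 24 h (0.0458).

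Other genes of the pathway, which are not among the 47, were counted in the same way. Of 43 further replication genes, 24 fell and 2 rose at 12 h (median -0.19), 17 and 2 at 24 h and 8 and 3 at 48 h, where 19.9% and 19.8%, 16.9% and 17.0%, and 8.94% and 9.23% of all features did. At 48 h the 8 became 4 without Dox 48 h replicate 1 and 13 with library totals, and the 3 became 1 without Dox replicate 3, NoDox replicate 1 or NoDox replicate 2. DSCC1, of an alternative clamp loader, fell at all 3 times (-0.60, -0.53 and -0.53), and the small polymerase subunit POLD4 was higher at all 3 (0.48, 0.35 and 0.39). With library totals the 12 h counts were 8 lower and 7 higher. Of 30 tested G1/S control genes 18 fell and 2 rose at 12 h, 15 and 4 at 24 h, and 7 and 2 at 48 h. The 2 that rose at 12 h became 0 without Dox replicate 1 or 2 or NoDox replicate 1 or 3, and 5 with library totals. MYC, a driver of G1 progression, was at 10.2, 8.50 and 8.18 CPM in NoDox and 1.72, 1.66 and 1.78 CPM in Dox at 12 h (-2.38), and above NoDox at 24 h (0.60) and 48 h (0.48). Of 6 tested CDK inhibitor genes in that list, 4 fell at 12 h, 5 at 24 h and 3 at 48 h; with library totals 1 was higher at 12 h. CDKN2B fell at all 3 (-3.17, -2.67 and -1.25), CDKN1A at 12 h (-0.75), CDKN1C and CDKN1B at 12 h and 24 h, and CDKN2C and CDKN2D at 24 h and 48 h; the family was singled out after its values were seen.

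Genes of G2 and M phase, which mark cycling cells past S phase, were counted in the same libraries. Of 28, 6 were lower and 1 higher with Dox at 12 h (median -0.14), about the share of all features that were lower (19.9%). At 24 h 9 were lower and 1 higher (-0.08; 16.9% and 17.0% of all features). At 48 h 28 of 28 fell (-0.66; 8.94% of all features), when the 47 genes had a median of -0.10. At 12 h the 6 became 15 without Dox 12 h replicate 3 and 12 without NoDox 12 h replicate 1, and with library totals 1 fell and 2 rose. Without doxycycline 24 of the 28 fell from day 10 to 12 h, when 25 of the 47 rose. Their summed level was 3299 to 3939 CPM in NoDox and 3132 to 3625 CPM in Dox at 12 h, and 5073 to 5161 against 3117 to 3445 CPM at 48 h. The difference between the 2 lists was not tested. Marker lists of cell types moved with the 12 h result as well. Of the 10 progenitor markers 9 fell, their sum going from 7112 to 7156 CPM down to 2832 to 3153 CPM, and of the 15 neuron markers 12 fell and 2 rose, from 1901 to 2224 down to 1099 to 1299 CPM. LGE markers fell in 7 of 9 cases and rose in 1, GSX2 itself, with GSX1 at 0 in all 3 Dox libraries. The GSX2 row averaged 288 CPM in Dox at 12 h. After washout it was below NoDox, at 6.28 against 12.7 CPM at 24 h and 1.96 against 11.1 CPM at 48 h. Whether transgene reads were counted in that row was not tested. Of 4 tested pluripotency markers 3 fell at 12 h, their list's sum going from 317 to 340 down to 209 to 231 CPM, and of 7 tested mesenchymal and endothelial markers 4 fell and 1 rose, from 1369 to 1523 down to 912 to 1285 CPM. At 24 h neuron markers were lower in 11 of 15 cases and higher in 2 (median -0.59), with sums of 2329 to 2664 CPM in NoDox and 1675 to 1924 CPM in Dox. Progenitor markers were lower in 5 of 10 cases and higher in 2 at that time, LGE markers in 5 and 2 of 9, pluripotency markers in 1 and 3 of 4 (1 higher without Dox 24 h replicate 3 or NoDox 24 h replicate 1), and mesenchymal and endothelial markers in 2 and 1 of 7. At 48 h 2 neuron markers were lower and 2 higher, 3 progenitor markers higher, 4 LGE markers lower and 2 higher, and 3 mesenchymal and endothelial markers lower. With any 1 library of the 48 h groups left out, 1 neuron marker was higher and 1 to 2 were lower. At 48 h 2 LGE markers were lower without NoDox replicate 2, and 2 progenitor markers were lower without Dox replicate 2. No neuron or progenitor marker was at 0 in any library, and the part of any of these in the result was not tested.

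**Figure D4:**
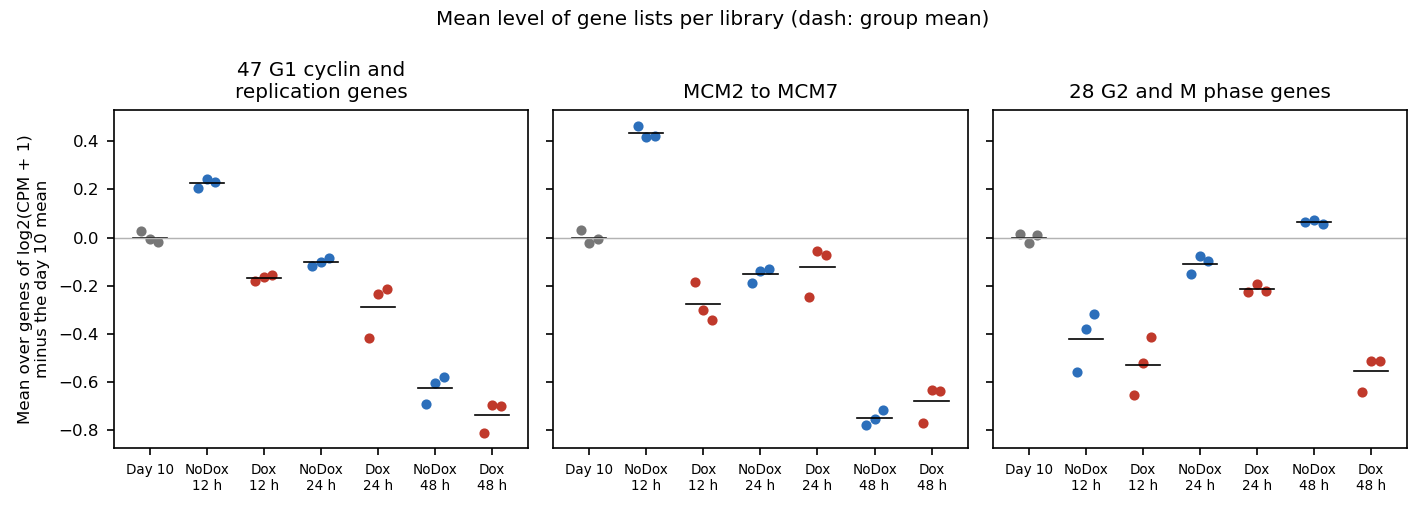
Each point is 1 library: the mean over a list of log2(CPM + 1) minus the day 10 mean, for the 47 genes (left), MCM2 to MCM7 (middle) and 28 G2 and M phase genes (right), with a dash at the mean of each group (grey day 10, blue NoDox, red Dox). At 12 h the MCM genes of the NoDox libraries lie between 0.42 and 0.47 and those of Dox between -0.34 and -0.19, whereas at 48 h it is the G2 and M phase genes whose groups lie far apart.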

How the data were processed

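RNA was measured in 21 libraries of 1 transgenic H9 line, in 7 groups of 3 taken from the labels. The authors deposited raw counts, a whole number of reads for each gene. Per the submitters' processing notes, the build was hg38 and the tools named include Subread 2.0.3 and STAR 2.7.9. Which annotation was counted, and with what strand setting, is not given in the sources used here. Libraries were made from poly-A RNA with a directional kit, per the labels' protocols. Gene lengths for CPM per kb are those the authors deposited in the count table. The deposited normalized table was not used.

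The members and lists were chosen with earlier results of these data known. Counts were tested with edgeR 4.0.16 (R 4.3.3): TMM factors, filterByExpr (19655 features, 99.92% of counts), all 7 groups in 1 quasi-likelihood fit with robust fitting (14 residual degrees of freedom, biological coefficient of variation 7.24%), and Benjamini-Hochberg adjustment over all features within each of 8 comparisons. The ± of a log2 value is its size over the square root of F. Depth of 14.4 to 33.8 M counts puts 3 counts at 0.211 CPM at most, for counting error only. Values in every library are given for the 4 members with the largest change past the threshold in each direction at each Dox comparison, the 2 largest for each NoDox comparison, and always for the D and E cyclins, E2F1, E2F2 and PCNA.

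Replicate numbers were checked as pairs by the correlation of deviations from group means. Over all features tested none exceeded 0.1 (0.0856 at most), so no pairing was taken, though among abundant features values reached 0.267. Alternatives were DESeq2 1.42.0 size factors and its Wald test, library totals, no filter, the groups compared alone, each library left out, a threshold of 0.5 on the log2 change itself, and a replicate block. Tested on simulated data of 19091 genes, the fit recovered 94% of changes of 0.5 and 100% of changes of 1 (log2) for the 12 h Dox effect, with 10 false calls among 18891 unchanged genes, and 58% and 99%, with 5 false calls, for the change of that effect by 24 h. The simulation changed 100 genes of each size, all above 5 CPM on average and split evenly between up and down. It gave every gene the same spread and had no outlying libraries or composition shift, so these rates may not hold for the real data.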

Additional observations from a re-analysis of the deposited data

Results flagged for a closer look

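The Dox effect on 25 of the 47 genes differed between times by the test of the difference itself (edgeR, adjusted over all features), in 30 tests that passed. In either direction, 29.8% of the 47 passed for 24 h minus 12 h, where 30.9% of all features did, and 34.0% for 48 h minus 24 h, where 25.8% did; at least 1 of the 2 passed for 53.2% and 44.4%, so the number of genes is close to the background. From 12 h to 24 h it rose for CDC6 (0.43), MCM2 (0.42), MCM3 (0.69), MCM4 (0.59), MCM5 (0.92), MCM6 (0.89), MCM7 (0.97), PCNA (0.54), RFC3 (0.47), UHRF1 (0.94), E2F1 (0.74), CCND1 (1.90) and CCND2 (0.45), all as differences of log2 fold changes, and it fell for CCND3 (-0.46). From 24 h to 48 h it rose for ORC1 (0.46), ORC6 (0.55), CDT1 (0.54), MCM2 (0.27), POLA2 (0.62), PRIM1 (0.41), POLD1 (0.28), LIG1 (0.31), RRM1 (0.29), E2F2 (0.67) and CCND2 (0.30). Over that interval it fell for PCNA (-0.38), TK1 (-0.62), SLBP (-0.58), UHRF1 (-0.98) and CCND1 (-1.20). The effects at 12 h and 24 h use different libraries, but the 24 h libraries enter both sets of differences.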

How the results depend on the processing

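With library totals in place of TMM factors, 3 genes were higher and 23 lower with Dox at 12 h, 8 had a negative difference between 24 h and 12 h, 7 a positive one between 48 h and 24 h, the median for 24 h minus 12 h was -0.066, and changes that had not passed turned to 0.091 (TK1, 12 h), -0.051 (MCM7, 48 h), -0.045 (MCM6, 48 h) and -0.022 (POLE2, 48 h). Tested against a log2 change of 0.5, the counts higher and lower were 0 and 5 (Dox 12 h), 1 and 1 (Dox 24 h), 0 and 0 (Dox 48 h), 0 and 0 (NoDox 12 h), 0 and 0 (NoDox 24 h), 0 and 23 (NoDox 48 h), 6 and 0 (24 h minus 12 h) and 0 and 2 (48 h minus 24 h); the threshold itself makes these smaller. Without a filter 1 gene was lower at NoDox 12 h, and by DESeq2's Wald test 2 were higher at NoDox 24 h; the cause was not tested. With DESeq2 size factors or with the groups compared alone no count moved by over 1.5 times.

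With each library left out, the counts higher and lower ranged over 0 to 1 and 32 to 37 (Dox 12 h), 2 to 5 and 17 to 24 (Dox 24 h), 2 to 2 and 5 to 13 (Dox 48 h), 18 to 24 and 1 to 2 (NoDox 12 h), 1 to 1 and 3 to 7 (NoDox 24 h), 1 to 1 and 39 to 42 (NoDox 48 h), 11 to 15 and 0 to 2 (24 h minus 12 h) and 6 to 13 and 4 to 6 (48 h minus 24 h). Some log2 changes that had not passed ranged across 0: at 12 h SLBP (-0.10 to 0.15) and GINS3 (-0.0045 to 0.12), at 24 h CCND2 (-0.0084 to 0.073), CCND3 (-0.16 to 0.0030), PCNA (-0.12 to 0.054) and TK1 (-0.18 to 0.039), and at 48 h E2F1 (-0.12 to 0.020), MCM7 (-0.0016 to 0.030), MCM6 (-0.012 to 0.065) and POLE2 (-0.015 to 0.11).

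A replicate block gave 37, 26 and 11 genes lower and 1, 5 and 2 higher with Dox at 12, 24 and 48 h; at 12 h CHAF1B then passed, and at 24 h POLA1 missed the threshold (adjusted p = 0.0513) and PRIM2 passed (0.0458). Among the 12805 features above 5 CPM on average, same-numbered Dox and NoDox samples correlated over 0.1 in all 3 pairs at 24 h (0.245, 0.112 and 0.102). At 48 h the values were 0.267, 0.187 and 0.0568, and at 12 h 0.0944, 0.0789 and -0.117. Between NoDox and day 10 they were 0.236, 0.0646 and 0.209 at 12 h and 0.259, 0.0255 and 0.239 at 24 h. For NoDox at 48 h they were 0.0948, -0.111 and 0.181. In all features every Dox sample correlated best with the NoDox sample of its own number at 24 h and 48 h, and 1 of 3 did at 12 h. For NoDox samples against day 10 it was 3 of 3 at 12 h, 2 of 3 at 24 h and 1 of 3 at 48 h. Depth limits CCNE2 most, the gene with the fewest reads.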
